A study of Ovis aries with 20 samples.

Results

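The insulin-like growth factor (IGF) axis was followed through IGF1, IGFBP2 and IGF2R in the heart walls of newborn lambs. They were taken by name: every probe whose gene name or description on the array gave 1 of these 3 genes was used, which found 6 of 15008 probes and 3 of the 877 genes that could be named. IGF1 had 1 probe, IGFBP2 had 2 and IGF2R had 3, and the probe with the highest mean over all arrays led for its gene.

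RNA was measured in the interventricular septum and in the left ventricle (LV), the main pumping chamber, on 20 one-colour arrays, taken as 1 per region of each of 10 singleton lambs. The labels of all 20 samples, cortisol and control alike, describe the lambs as telemetry newborns. The 5 cortisol lambs were born to ewes that received cortisol at 1 mg/kg/day from day 115 of pregnancy until birth, and the 5 control lambs to ewes that received vehicle over the same period, so the hormone was given to the mother and not to the lamb. The groups were septum cortisol, septum control, LV cortisol and LV control, with 5 arrays each. The lambs were killed 10 to 480 minutes after birth, and the labels do not give the time of each lamb.

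Levels are log2 of the background-corrected probe intensity minus the 75th percentile of its array, so 0 is the brightness that 75% of probes stay below, and a difference of 1 is a 2-fold change. That percentile was 98.4 to 440 intensity units and 57.9% to 72.1% of spots were well above background per array. The heart muscle genes MB (myoglobin) and TPM1 (tropomyosin) lay at or above percentile 99.59 of all probes in every group. In LV they had values on only 2 or 3 of 5 arrays per group after outlier spots were dropped. Of the 4 liver marker genes on the array, ALB and TTR were well above background on at most 1 of 5 arrays in any group, while APOA1 and TF were so on all 5 arrays of every group, between percentile 60.39 and 70.21. The arrays lay on 4 slides that were largely split by region: slide 1 held 6 septum arrays, slide 3 held 6 LV arrays, slide 2 held 4 septum and 3 LV arrays, and slide 4 held 1 LV cortisol array. Only slide 2 held both regions.

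IGF1 is a secreted hormone and local growth factor that signals through the type 1 receptor, IGF1R, and growth hormone drives its production in liver and other tissues. IGF-binding proteins such as IGFBP2 hold IGFs in the extracellular fluid and set how much reaches the receptors. IGF2R, the cation-independent mannose 6-phosphate receptor, takes up IGF2 for breakdown in lysosomes and also carries newly made lysosomal enzymes there. IGF1 drives division of heart muscle cells in fetal sheep, and cortisol rises before birth and matures many organs.

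The probes show which part of each transcript was read. They were copied from the scanner files, 5′ to 3′. The IGF1 probe is shown because it spans the end of the coding sequence, with the stop codon in capitals at bases 43 to 45 of 60 and 15 bases after it.
IGF1: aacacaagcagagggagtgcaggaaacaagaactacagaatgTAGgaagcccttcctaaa
Both IGFBP2 probes end close to the 3′ end of the transcript, and their last 30 bases are shown with AATAAA, the letters of the usual polyadenylation signal, in capitals.
IGFBP2 lead probe: cttaagattaaaggaaggaaaAATAAAaaa
IGFBP2 other probe: gcttaagattaaaggaaggaaaAATAAAaa
These 2 probes are offset by 1 base and share 59 of their 60 bases, as do the first 2 IGF2R probes, whose shared bases are in capitals.
IGF2R lead probe: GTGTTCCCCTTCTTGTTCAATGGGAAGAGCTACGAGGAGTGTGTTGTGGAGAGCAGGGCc
IGF2R other probe: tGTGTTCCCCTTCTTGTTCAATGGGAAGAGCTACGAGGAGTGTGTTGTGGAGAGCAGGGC
A further IGF2R probe shares no such stretch with the others and reads another part of the transcript.
IGF2R distant probe: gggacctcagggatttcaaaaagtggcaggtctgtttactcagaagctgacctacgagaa

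All 6 probes were well above background and below saturation on all 20 arrays. The overlapping IGF2R probes differed by -0.17 to 0.25 log2 units on any array. The overlapping IGFBP2 probes differed by 0.65 ± 0.60 (mean ± SD, n = 5) in LV control and by at most 0.10 on average in the other 3 groups, so the LV control level of IGFBP2 depended on the probe.

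IGF1 had the largest cortisol difference of the 3 genes in both walls, and it did not pass after adjustment over all probes in either. In septum its level was -0.28, -1.42, -1.60, -1.88 and -2.84 in the 5 cortisol lambs, against -2.06, -2.59, -3.38, -2.62 and -1.82 in the 5 control lambs. In LV it was -0.67, -0.08, 0.51, -1.07 and -2.03 in the cortisol lambs, against -1.35, -2.03, -2.44, -2.19 and -2.36 in the control lambs. Cortisol 1 was the highest septum sample and cortisol 3 the highest LV sample, cortisol 5 was the lowest cortisol lamb in both, and the groups overlapped in both walls.

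The septum mean was -1.61 ± 0.92 with cortisol and -2.49 ± 0.60 in control lambs (SD, n = 5 each), a difference of 0.89 ± 0.44 (SE), or 1.85-fold with a 95% interval of 0.953 to 3.59. The LV mean was -0.67 ± 0.97 with cortisol and -2.07 ± 0.43 in control lambs (SD, n = 5 each), a difference of 1.41 ± 0.42 (SE), or 2.65-fold with an interval of 1.40 to 5.02. In limma the unadjusted p was 0.0658 in septum and 0.00631 in LV, and the adjusted p was 0.818 and 0.880. Averaged over both walls of each lamb, cortisol lambs were 1.15 ± 0.37 higher (SE; 2.21-fold, interval 1.26 to 3.90; limma unadjusted p = 0.0101, adjusted p = 0.815). No probe passed for cortisol in either wall or in the average (0% of 10369, 9791 and 10069 probes), and at an unadjusted p under 0.05 the background was 3.7% in septum, 5.16% in LV and 5.15% in the average. IGF1 was the only one of the 6 member probes below that unadjusted threshold in LV, and none was in septum.

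The cortisol difference of IGF1 was 0.52 lower in septum than in LV on the log2 scale, with an SE of 0.64 and a 95% interval of -1.85 to 0.82 (limma adjusted p = 1.00). In LV, slide 3 alone gave 1.78 and slide 2 alone 0.37, where only 1 cortisol array was present; in septum, slide 1 alone gave 1.32 and slide 2 alone 0.24. Correcting the background with the normexp model in place of the scanner's correction gave 0.29 in septum and 0.72 in LV. Leaving out cortisol 1 lowered the septum value to 0.56. Among the 2762 probes that were well above background on no array, the median cortisol difference was 0.55 in septum and 0.24 in LV, against 0.03 and -0.01 over the probes tested. The dim probes had medians in the direction of IGF1, whose intensity was 24 to 191 units, and their part in its difference was not tested.

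Fibroblast markers had cortisol differences of the same sign as IGF1. All 7 of those measured (COL1A1, COL1A2, COL3A1, COL6A1, DCN, FBLN1 and VIM) were positive in both walls, with a median difference of 0.47 in septum and 0.49 in LV, and none passed. Over all probes 54.7% were positive in septum and 48.7% in LV. The sign was not particular to fibroblasts: the macrophage and monocyte (3 of 3), heart muscle (2 of 2) and liver (2 of 2) markers tested were positive in both walls. Of 22 heart muscle markers listed, 2 were on the array. In LV, TPM1 had values on 2 cortisol and 3 control arrays, and MB on 3 and 3. Positive in septum and LV were 4 and 3 of 6 endothelial and 2 and 1 of 2 T cell markers. Red cell markers gave 2 of 2 and 0 of 1, and the 1 smooth muscle marker was negative in both. The summed level of the fibroblast markers on the unlogged scale was 87.2 to 231 in septum cortisol against 93.6 to 135 in septum control, and 86.2 to 239 in LV cortisol against 95.3 to 145 in LV control. The part of these cell types in the IGF1 difference was not tested. In such bulk samples, more cells of a type and more RNA per cell cannot be told apart.

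Of the other ligand and receptors, IGF2, the main fetal IGF, had a level of 5.04 ± 0.68 in septum cortisol, 4.79 ± 0.24 in septum control, 5.18 ± 0.61 in LV cortisol and 4.88 ± 0.24 in LV control (SD, n = 5 each). Its cortisol difference was 0.25 ± 0.30 in septum and 0.30 ± 0.28 in LV (SE). IGF1R, the signalling receptor, had 0.27 ± 0.50 and 0.23 ± 0.49. The insulin receptor INSR had 0.12 ± 0.32 and -0.17 ± 0.29. None of these passed, and their 95% intervals include 0: for IGF2 they ran from -0.41 to 0.91 in septum and from -0.31 to 0.92 in LV, and for IGF1R from -0.83 to 1.37 and from -0.85 to 1.31. These values are of the lead probes. The other IGF2 probe had cortisol and control means of 3.80 and 3.55 in septum and 3.90 and 3.86 in LV. The other IGF1R probes had 0.58 and 0.54, and -1.49 and -1.43, in septum. In LV they had 0.67 and 0.60, and -1.56 and -1.64.

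The growth hormone receptor GHR, through which growth hormone induces IGF1, had cortisol differences close in size to that of IGF1 in septum and below it in LV. Its level was -0.58 ± 0.71 in septum cortisol against -1.49 ± 0.80 in septum control, and -0.37 ± 0.54 in LV cortisol against -1.34 ± 0.90 in LV control (SD, n = 5 each). The cortisol difference was 0.91 ± 0.42 in septum and 0.97 ± 0.42 in LV (SE), with limma adjusted p of 0.818 and 0.880. The 95% interval of GHR included 0 in septum (-0.02 to 1.84) and lay above it in LV (0.05 to 1.88). Without control 3 the GHR difference was 0.60 in septum and 0.60 in LV, and under normexp it was 0.43 and 0.50. The glucocorticoid receptor NR3C1, which binds cortisol, had 0.31 ± 0.34 in septum (interval -0.45 to 1.06) and 0.66 ± 0.28 in LV (interval 0.04 to 1.28), and neither passed. Without cortisol 3 the septum value of NR3C1 was 0.0431, without cortisol 1 it was 0.19 and without cortisol 5 it was 0.51; slide 1 alone gave 0.70, slide 2 alone -0.28, normexp 0.0582, and 0.15 came from the values of the authors' deposited table. In LV normexp gave 0.41. STAT5A, a carrier of the growth hormone signal, was well above background on 1 of 5 cortisol and 4 of 5 control septum arrays, so no cortisol difference is read from it.

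In all, 100 genes of the axis, its signalling and its partners were listed beside the 3 members, and 27 were on the array. In septum 20 of them were tested, 15 were positive for cortisol and the median difference was 0.23, against 54.7% positive and a median of 0.03 over all probes. In LV 18 were tested, 13 were positive and the median was 0.19, against 48.7% positive and a median of -0.01. No gene of the list passed for cortisol in either wall, the same as the background of 0%.

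IGFBP2 showed no cortisol difference beyond the spread between lambs. In septum its lead probe was at -0.36, 1.15, 1.45, -0.39 and -0.31 in the cortisol lambs, against -0.40, 1.09, -0.44, 0.35 and -0.17 in the control lambs. In LV it was at -0.48, 0.45, 0.35, -0.97 and -0.94 in the cortisol lambs, against -0.62, 0.74, -0.71, -0.52 and -1.02 in the control lambs. On this lead probe cortisol 2, cortisol 3 and control 2 were the 3 highest lambs in both walls and stood apart from the other 7. The other overlapping probe did not show the same split: in LV, control 2 was at -0.56, below control 4 at -0.34. In septum these lambs were at 0.73 and 0.46 on that probe.

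The means were 0.31 ± 0.91 in septum cortisol and 0.09 ± 0.64 in septum control, and -0.32 ± 0.69 in LV cortisol and -0.43 ± 0.68 in LV control (SD, n = 5 each). The cortisol difference was 0.22 ± 0.44 in septum (SE; limma adjusted p = 0.903) and 0.11 ± 0.39 in LV (adjusted p = 0.969). Its LV interval ran from -0.74 to 0.96, which includes a difference in either direction. The other overlapping probe gave 0.40 ± 0.48 and 0.73 ± 0.39 (SE). On that probe the LV means were -0.35 ± 0.76 with cortisol and -1.08 ± 0.60 in control lambs (SD, n = 5 each). The cortisol difference of the lead probe was 0.11 ± 0.62 larger in septum than in LV (adjusted p = 1.00).

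The other binding proteins had differences of the same sign. IGFBP3, IGFBP4, IGFBP5 and IGFBP6, together with IGFBP2, were positive in 5 of 5 in both walls, with a median of 0.24 in septum and 0.23 in LV, and none passed. The largest was IGFBP6, which binds IGF2 with preference: its level was 3.37 ± 1.04 in septum cortisol against 2.71 ± 0.24 in septum control, and 3.56 ± 1.01 in LV cortisol against 2.97 ± 0.23 in LV control (SD, n = 5 each). On slide 2 alone the IGFBP6 difference was -0.38 in septum and -0.32 in LV. IGFBP1, an acute hepatic binding protein, was well above background on 1 of 20 arrays.

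IGF2R showed no cortisol difference beyond the spread between lambs. In septum the lead probe was at -0.52, -0.09, -0.24, -0.53 and -0.13 in the cortisol lambs, against -0.40, 0.17, 0.03, -0.26 and -0.06 in the control lambs. In LV it was at -0.82, -0.39, -0.45, -0.89 and -0.70 in the cortisol lambs, against -0.62, -0.32, -0.70, -0.64 and -0.66 in the control lambs. The cortisol difference was -0.20 ± 0.17 in septum (SE; 95% interval -0.57 to 0.17; limma adjusted p = 0.818) and -0.06 ± 0.17 in LV (interval -0.43 to 0.30; adjusted p = 0.961). The other overlapping probe gave -0.14 ± 0.18 and -0.13 ± 0.20. The distant, dimmer probe, with levels near -3, gave 0.15 ± 0.23 and 0.27 ± 0.28, so the probes differed in sign.

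The 3 genes were also compared between the walls. In the fit that takes the 20 arrays as separate samples no member passed; with the lamb as a random block, which compares the walls of the same lamb, all 6 probes passed. Over both treatments the background was 0.546% of 10069 probes without the block, 20.5% with the lamb as a random block and 17.6% for the difference within each lamb. The SEs and intervals given below for septum against LV come from the fit without the block and do not use the pairing. Within lambs, the lead probes had an SD of septum minus LV of 0.77 for IGF1, 0.32 for IGFBP2 and 0.18 for IGF2R (n = 10). The pairing of arrays rests on replicate numbers shared within a treatment and on a check described under the processing, since the labels do not state it.

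IGF2R was higher in septum than in LV in all 10 lambs, by 0.21 to 0.57 in the cortisol lambs and 0.23 to 0.74 in the control lambs, against a background of 3.56% of probes higher in all 10. The mean difference was 0.42 ± 0.11 (SE; 1.33-fold, interval 1.14 to 1.56), with a limma adjusted p of 0.0858 without the block, 0.000195 with it and 0.00304 within lambs. The other overlapping probe was higher in 10 of 10 lambs with 0.37 ± 0.13, and the distant probe in 8 of 10 with 0.51 ± 0.18. On slide 2 alone these probes gave 0.60 and 0.85, and under normexp 0.27 and 0.16. With slide as a fixed block and no lamb block the value was 0.52 (adjusted p = 0.775). With slide added to the lamb block it was 0.59 (adjusted p = 0.0101), and slide 2 alone gave 0.52 (adjusted p = 0.590). Under the normexp background with the lamb block it was 0.32 (adjusted p = 0.467).

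IGFBP2 was higher in septum in 10 of 10 lambs on the lead probe, by at least 0.12, and in 9 of 10 on the other, against 11.4% of probes that were higher in at least 9. The lead difference was 0.57 ± 0.31 (SE; 1.49-fold), with an adjusted p of 0.475 without the block, 0.0115 with it and 0.0052 within lambs. The other overlapping probe gave 0.90 ± 0.32, with 0.218 and 0.000875; slide 2 alone gave 1.07, and normexp 0.64. With slide alone as a block the lead value was 0.54 (adjusted p = 0.892). With lamb and slide as blocks it was 0.59 (adjusted p = 0.174), slide 2 alone gave 0.58 (0.590), and normexp with the lamb block gave 0.43 (0.954).

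IGF1 went the other way and was lower in septum in 8 of 10 lambs; cortisol 1 and control 5 were higher there, by 0.39 and 0.54, and the most negative lamb was cortisol 3 at -2.10. The difference was -0.68 ± 0.32 (SE; 0.625-fold, interval 0.393 to 0.992), with an adjusted p of 0.385 without the block, 0.0207 with it and 0.0483 within lambs. The within-lamb call was kept only when cortisol 1 or control 5 was left out, and lost when any of the other 8 lambs was (adjusted p 0.0137 to 0.107 over the 10), while IGFBP2 and IGF2R kept theirs without any 1 of the 10 lambs (highest 0.0156 and 0.0109). With slide alone as a block IGF1 was at -0.43 (adjusted p = 0.912). With lamb and slide as blocks IGF1 was at -0.47 (adjusted p = 0.485), slide 2 alone gave -0.27 (0.882), and normexp with the lamb block gave -0.30 (1.00). Probes well above background on no array had a median of -0.57 between the walls, against 0.01 over the tested probes, in the same direction as IGF1.

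In cortisol lambs alone, septum minus LV was -0.94 ± 0.45 for IGF1, 0.63 ± 0.44 for IGFBP2 and 0.35 ± 0.15 for IGF2R (SE). In control lambs it was -0.42 ± 0.45, 0.52 ± 0.44 and 0.49 ± 0.15. On slide 2 alone the cortisol lambs gave -0.33, 0.59 and 0.37 and the control lambs -0.20, 0.57 and 0.67. Under normexp the cortisol lambs gave -0.51, 0.57 and 0.30 and the control lambs -0.083, 0.29 and 0.33. None passed without the block in either set, where 0% and 0.0397% of probes passed; with the lamb as a random block IGF2R passed in both, with an adjusted p of 0.0402 in cortisol lambs and 0.00241 in control lambs, where 3.07% and 11% of probes passed. The change of the cortisol difference from wall to wall, given above without the pairing, is the test between these sets, and no member passed it. None passed in 21 alternatives either, which include the lamb block and the within-lamb difference (lowest limma adjusted p = 0.997 for each member).

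Among partners of the axis, the cargo and sorting genes of IGF2R had positive septum minus LV differences in 5 of 7 tested genes, with a median of 0.17. CTSD, a lysosomal protease carried by the receptor, had 0.28 ± 0.09 (SE; higher in 9 of 10 lambs; adjusted p = 0.177 without the block, 0.00258 with it). MTOR, a kinase of IGF signalling, had 0.27 ± 0.09 (10 of 10 lambs; 0.194 and 0.00277). TGFB1, a growth factor whose latent form IGF2R can bind, was at -0.41 ± 0.17 (lower in 10 of 10 lambs, as 3.31% of probes were; 0.296 and 0.00407). IGFBP5 was at -0.46 ± 0.29 (lower in 10 of 10 lambs; 0.564 and 0.0174), opposite to IGFBP2. IGF1R, by its lead probe, was at -0.40 ± 0.37 and lower in 10 of 10 lambs (0.740 and 0.103), while its other 2 probes were lower in 6 and 3 of 10. The lead probe of IGF1R passed in 11 of 35 alternative fits (lowest limma adjusted p = 0.0124). Under normexp CTSD was at 0.0502, MTOR at 0.0146 and TGFB1 at -0.11, and with the lamb block none of these partners passed there; IGFBP5 was at -0.44 and IGF1R at -0.39. Slide 2 alone gave 0.38 for CTSD, 0.25 for MTOR, -0.27 for TGFB1, -0.65 for IGFBP5 and -0.17 for IGF1R. With lamb and slide as blocks CTSD had an adjusted p of 0.0358, MTOR 0.0653, TGFB1 0.219, IGFBP5 0.150 and IGF1R 0.550. Over the whole list of 19 tested partners, 8 were positive and the median was -0.14, against 52.3% positive and 0.01 over all probes.

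Across lambs, the LV and septum levels of IGF1 had Pearson r = 0.684 and Spearman rho = 0.733 over 10 lambs (permutation p = 0.0272 and 0.0204, 9 relations computed, Benjamini-Hochberg adjusted p = 0.0767 and 0.119). Without the 2 lambs farthest from the LV median r was 0.798, in the 6 lambs with septum on slide 1 and LV on slide 3 it was 0.639 (exact p = 0.167), and normexp gave 0.299. With treatment means removed IGF1 had r = 0.505 and rho = 0.600 (permutation p = 0.133 and 0.0739; adjusted 0.170 and 0.111). For IGF2R r was 0.671 and rho 0.503 (permutation p = 0.0341 and 0.144; adjusted 0.0767 and 0.325). Without the 2 lambs farthest from the LV median, whose removal also narrows the range, r was 0.451. The 6 lambs on slides 1 and 3 gave 0.913 (exact p = 0.0111), and with treatment means removed r was 0.675 (adjusted permutation p = 0.117). For IGFBP2 r was 0.906 and rho 0.600 (permutation p = 0.00372 and 0.074; adjusted 0.0167 and 0.222), with 3 lambs apart in both walls on the lead probe. With treatment means removed IGFBP2 had r = 0.907 and rho = 0.806 (adjusted permutation p = 0.0086 and 0.054). Among the other 7 lambs r was 0.276 and rho -0.04 (exact p = 0.695 and 0.964, adjusted 0.879 and 0.964). Over 10 lambs neither the IGF1 nor the IGF2R relation passed after adjustment, and the IGFBP2 relation passed by r and not by rho.

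Between members within a wall, IGF1 and IGF2R had r = -0.592 and rho = -0.358 in septum over 10 lambs (permutation p = 0.0684 and 0.314; adjusted p = 0.123 and 0.403), and r = 0.231 and rho = 0.176 in LV (permutation p = 0.519 and 0.632; adjusted p = 0.584 and 0.632). With treatment means removed they had r = -0.462 and rho = -0.321 in septum (permutation p = 0.182 and 0.365; adjusted 0.204 and 0.411) and r = 0.528 and rho = 0.636 in LV (permutation p = 0.120 and 0.0539; adjusted 0.170 and 0.111). Over all 10 lambs IGFBP2 between walls and IGFBP2 with IGF2R in LV each had an adjusted permutation p of 0.0167 for Pearson's r, and 0.222 and 0.119 for rho. The 3 lambs apart were set aside after seeing the data: among the other 7, IGFBP2 and IGF2R had r = 0.148 in LV (exact p = 0.721) and 0.115 in septum (exact p = 0.879). Those 3 were picked by their IGFBP2 level on the lead probe. Leaving them out narrows the range of IGFBP2, so these values cannot decide what the relations rest on. Without the 2 lambs farthest from the LV median of IGFBP2, r was 0.863 between walls and 0.682 with IGF2R in LV (adjusted exact p = 0.193 and 0.229).

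The named genes whose patterns were most like each member were ranked by the lower of their correlations over the 10 septum and the 10 LV arrays, among 551 candidates. The arrays share slides and scaling, and the values are a description. IGF1 was most like COL1A1 (r = 0.901 in septum and 0.889 in LV), PTCH1 (0.815 and 0.836), BGN (0.891 and 0.792), INHBA (0.785 and 0.920) and NOG (0.777 and 0.783). IGFBP2 was most like TGFB1 (0.876 and 0.933), CSNK1E (0.869 and 0.867), ANXA2 (0.878 and 0.859), TNFRSF1A (0.802 and 0.887) and CSNK1D (0.810 and 0.801). IGF2R was most like CTSD (0.763 and 0.887), CATHL3 (0.725 and 0.810), CSNK1E (0.705 and 0.913), CATHL1B (0.702 and 0.736) and BAC5 (0.691 and 0.783).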

How the data were processed

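Total RNA was extracted with Trizol, purified on columns and 100 ng was labelled with Cy3, per the labels' protocols. The authors deposited scanner files of Agilent Feature Extraction 10.1.1.1, whose processed intensity was corrected for a fitted background surface and for spatial trends and was not normalized between arrays, per the file headers. Raw mean and local background intensities, also per the file headers, served the normexp alternative (offset 50). In the value table the authors deposited, log2 intensity is given for 10373 probes, normalized separately by region with a method not given in the sources used here (medians 6.71 to 6.72 in LV and 9.49 to 9.54 in septum, 5453 empty cells in each septum column); the submitters' processing notes name limma with no version. It was used as an alternative within each region.

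The 75th percentile of each array was subtracted from its log2 processed intensities, spots of one probe were averaged, and 2 to 68 outlier spots per array were dropped. Of 15008 probes, 1417 were named by accession (711), gene identifier (141), symbol (522), synonym (25) or description (18), and brought to symbols of ARS-UI_Ramb_v3.0, a sheep assembly; 13591 stayed unnamed. The files name no genome build, so no coordinates are given. Tests within a wall took probes that exceeded background clearly on at least 5 of its 10 arrays, and tests across walls those that did on 10 of 20. All of these were fitted in R 4.3.3 by limma 3.58.1 (statmod 1.5.0 for the random block), and two-sided p-values were adjusted by Benjamini-Hochberg over every probe fitted, with 0.05 as the threshold; files were read with version 1.17.8 of data.table, and correlations used scipy 1.17.1 with 100000 resamples or exact enumeration. The code was tested on simulated data.

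The labels describe 5 lambs per treatment. Deviations from the group mean correlated at 0.450 to 0.813 between septum and LV arrays that shared a treatment and a number. Among the septum arrays of its own treatment, the LV array was closest to its partner in 10 of 10. Septum arrays of the other treatment were not compared. Such arrays were treated as the walls of a single lamb, a pairing that comes from the data and the shared numbers and is not stated in the labels. Same-numbered control and cortisol arrays exceeded 0.1 in 3 of 5 pairs in septum and 4 of 5 in LV and were not paired. The number of arrays limits the precision. Named genes were all probes of the 3 members, and from the axis lists any gene that passed and a few genes of smallest p in each comparison, with the ligands, receptors, binding proteins and cortisol genes. The members, lists and tests were chosen with earlier results of these data known. The fetal samples that the design text mentions were not analysed here.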

Additional observations from a re-analysis of the deposited data

Results flagged for a closer look

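In 96 groups of 5 arrays, for the member probes and the other named genes, 11 held 1 array far from the other 4 by Dixon's ratio (above 0.71), which chance flags in about 1 of 20 groups. The lead probes of IGFBP2 and IGF2R were both high in the LV array of control 2. IGFBP2 was at 0.74, against -1.02 to -0.52 in the other LV control arrays, and IGF2R at -0.32, against -0.70 to -0.62. The other overlapping IGFBP2 probe was at -0.56 in that array, inside its LV control range of -1.65 to -0.34. The other overlapping IGF2R probe was at -0.15 there, the top of its LV control range, which began at -0.75. Neither of these other probes was flagged. CTSD stood apart in the same array, at 3.03 against 2.69 to 2.72. TGFB1 stood apart in the septum of control 2, at -0.78 against -1.73 to -1.47 in the other septum control arrays. IGF1R was high in control 1 in both walls, at 2.62 against 1.04 to 1.32 in septum and at 3.32 against 1.29 to 1.82 in LV. In the septum of control 1, NR3C1 was at 0.11 against -0.89 to -0.61, and NR3C2, the mineralocorticoid receptor, at 3.02 against 2.13 to 2.35. Of the cortisol lambs, IGFBP1 was at -3.61 in the septum of cortisol 1 against -7.16 to -6.31, IGFBP3 at -4.59 in the LV of cortisol 5 against -2.91 to -2.42, and STAT5A at -3.97 in the LV of cortisol 1 against -5.02 to -4.81. None of these was weighed further.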

How the results depend on the processing

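No alternative brought a probe past the threshold for cortisol. Of IGF1's 165 alternative values 161 kept their direction and side of the threshold and 0 reversed; for IGFBP2 144 of 166 did and 10 reversed, and for IGF2R 147 of 166 and 1. For the other probes and genes, 494 of 592 did, 6 reversed and 92 newly passed. The reversed cortisol differences were IGFBP2 on slide 2 alone (-0.0457 in septum, -0.0726 in LV) and in the difference between regions with array weights (-0.14), the distant IGF2R probe on slide 2 alone (-0.45 in septum, -0.15 in LV), IGFBP6 there (-0.38 and -0.32), NR3C1 there in septum (-0.28), and STAT5A in septum with normexp (0.11). Leaving out 1 lamb moved IGFBP2 over -0.0648 to 0.47 in septum, -0.083 to 0.40 in LV, -0.0615 to 0.44 averaged and -0.00659 to 0.24 between regions, and IGF2R in LV over -0.13 to 0.00591.

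For septum against LV, probes passing in cortisol lambs (0) became 2 with quantile normalization, 1 with the every-array filter, 1 with trend and robust eBayes, 1 with array weights, 309 with the lamb as a random block, 127 within lambs and 0 to 8 leaving out 1 lamb. In control lambs (4) they became 0 with normexp, 1 with quantile normalization, 1 with no filter, 1 with outlier spots kept, 277 with array weights, 0 with slide as a block, 0 on slide 2 alone, 1105 with the lamb block, 791 within lambs and 0 to 44 leaving out 1 lamb. Over both (55) they became 1 with normexp, 118 with no filter, 338 with array weights, 0 with slide as a block, 0 on slide 2 alone, 2065 with the lamb block, 1772 within lambs, 281 with lamb and slide, 6 with lamb block and normexp, 9 with lamb block on slide 2 and 5 to 2284 leaving out 1 lamb. IGF2R passed with array weights (0.50 in control lambs, 0.41 over both), with the lamb block (0.35 in cortisol lambs, 0.49 in control lambs, 0.42 over both), within lambs (0.49 and 0.42) and with lamb and slide (0.59). IGF1 (-0.68) and IGFBP2 (0.57) passed over both with the lamb block and within lambs. Leaving out 1 lamb gave -0.84 to -0.53 for IGF1, 0.51 to 0.64 for IGFBP2 and 0.39 to 0.45 for IGF2R.

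The replicate block on shared control and cortisol numbers left the adjusted p of IGF1 at 0.663 in septum and 0.744 in LV. IGFBP2 between walls had r = 0.863 without the 2 farthest lambs, 0.889 on slides 1 and 3 and 0.276 without the 3 lambs apart; with IGF2R in LV it had 0.682, 0.902 and 0.148. IGF2R between walls passed with median scaling (0.745). IGF1 reversed with IGFBP2 in LV (-0.0442) and IGF2R in LV (-0.50) without the 2 farthest lambs, with IGF2R in septum under normexp (0.0218), and with IGFBP2 in septum on slide 1 (-0.28) and without the 3 lambs (-0.15). The causes were not tested. These 3 lambs, and the fits with lamb, slide and normexp added together, were chosen after seeing the data. Depth here is signal over background: IGF1 had 24 to 191 intensity units.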

Other observations

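The genes of corticosteroid action gave values not described above. HSD11B1, the enzyme that regenerates cortisol from cortisone, was at -2.48 ± 0.63 in septum cortisol against -1.91 ± 0.54 in septum control, and at -2.25 ± 0.62 in LV cortisol against -1.99 ± 0.50 in LV control (SD, n = 5 each). Its cortisol difference was -0.58 ± 0.34 in septum and -0.27 ± 0.33 in LV (SE), and neither passed in limma. The mineralocorticoid receptor NR3C2 was at 2.34 ± 0.28 in septum cortisol against 2.38 ± 0.37 in septum control, and at 2.04 ± 0.40 in LV cortisol against 2.01 ± 0.62 in LV control (SD, n = 5 each).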
